A study of Mus musculus with 7 samples.

Results

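A list of 34 genes of glycolysis, lactate handling and the hypoxia-inducible factor (HIF) pathway was read in CD4+ T cells of scurfy mice with and without Il2 and of wild-type mice. The genes were listed by name, with earlier results of these data known. Each was represented by the probe set that names that gene alone and has the highest mean log2(intensity + 1) over the 7 arrays. Of the 34 genes, 30 had such a probe set, out of 18193 genes on the array that had one. Gapdh and Bnip3l are named only by probe sets shared with other genes, no probe set of the annotation used here names Gpi1 or Eno1, and these 4 genes were not analysed here. Testing was limited to genes that reached 5 on this log2 scale in the mean of some group: 28 of the 30, and 11460 genes in all. Eno2 and Vegfa were dimmer and were read but not tested.

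All arrays held RNA of CD4+ T cells sorted from lymph nodes of male mice aged 3 weeks, after antibody depletion of B cells, CD8 T cells, myeloid and NK cells. The Sf.Il2-/- group (3 arrays) came from mice with the scurfy mutation and the null allele Il2tm1Hor (strain given as B6.129P2-Il2tm1Hor/J). The Sf group (3 arrays) came from B6.Cg-Foxp3sf/J mice, which carry the scurfy mutation of Foxp3, the factor that regulatory T cells need, and for which the labels name no change in Il2. The wild-type group, C57BL/6 and called B6, was 1 array of pooled nodes of 2 mice, so every comparison with B6 rests on 1 array that is assumed to vary like the mutant arrays. Both mutations are carried in all cells of the animal, and scurfy mice are known for inflammation of many organs. Fewer cells of a type and less RNA per cell cannot be told apart in such sorted populations.

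Median intensity lay between 29.3 and 32.4 in the 7 arrays and the upper quartile between 110 and 145. Il2 itself read 7.17, 8.20 and 7.74 in Sf.Il2-/-, 5.39, 5.09 and 7.35 in Sf, and 5.22 in B6, so its signal did not drop with the null allele. The sources used here do not place the probes within Il2, so this reading does not check the genotype, and Sf.Il2-/- below means the arrays that carry this label. Foxp3 read 4.41, 4.20 and 4.24 in Sf.Il2-/-, 6.04, 5.87 and 6.32 in Sf, and 7.25 in B6. All 7 CD4 T cell markers that could be read passed the filter, with summed intensities of 15486 to 17219 in Sf.Il2-/-, 9442 to 13549 in Sf and 18990 in B6. Sf 3 stood apart from Sf 1 and Sf 2 in many of the genes described here. By their dim probe sets Sf 3, Sf.Il2-/- 3 and B6 formed one array set and the other 4 arrays another. The lowest correlation within a set (0.553) was no higher than the highest between sets (0.554), and the labels name no such sets, and results that rest on Sf 3 are given with and without it.

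Glycolysis splits glucose into pyruvate, which lactate dehydrogenase turns into lactate or pyruvate dehydrogenase feeds to the mitochondria. Activated T cells are known to raise glucose uptake and lactate output, and IL-2 signalling is among the inputs that sustain this. HIF-1alpha, encoded by Hif1a, raises most glycolytic genes when oxygen-dependent prolyl hydroxylases, encoded by the Egln genes, do not mark it for destruction. Egln3 and Pdk1 are themselves textbook targets of HIF.

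Promoter sequences are shown for the 2 genes that passed the test below, Egln3 and Pdk1, for Tpi1, the glycolytic enzyme gene with the largest difference in Sf, and for Ldha, a textbook HIF target that did not pass. The windows are those of RefSeq on GRCm38.p6, from 250 bases before to 50 after an annotated start, and read 5′ to 3′ on the strand of the gene. Capitals mark the core of the HIF response element, searched as ACGTG and GCGTG and, on the other strand, as CACGT and CACGC. The Egln3 window is chr12:54203825-54204124, minus strand. The Pdk1 window is chr2:71872974-71873273, plus strand, the Tpi1 window chr6:124814109-124814408, minus strand, and the Ldha window chr7:46845554-46845853, plus strand.
Egln3: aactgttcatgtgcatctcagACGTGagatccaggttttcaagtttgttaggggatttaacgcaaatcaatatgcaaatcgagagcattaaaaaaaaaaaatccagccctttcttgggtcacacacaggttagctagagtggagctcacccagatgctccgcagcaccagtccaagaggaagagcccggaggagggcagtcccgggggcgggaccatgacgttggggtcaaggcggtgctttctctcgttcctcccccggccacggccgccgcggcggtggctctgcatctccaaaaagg
Pdk1: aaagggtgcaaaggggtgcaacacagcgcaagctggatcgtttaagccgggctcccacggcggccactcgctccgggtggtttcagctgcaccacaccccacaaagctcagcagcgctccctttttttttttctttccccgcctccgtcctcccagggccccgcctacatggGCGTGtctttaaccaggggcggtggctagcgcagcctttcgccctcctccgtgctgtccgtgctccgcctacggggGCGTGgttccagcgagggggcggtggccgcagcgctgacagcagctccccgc
Tpi1: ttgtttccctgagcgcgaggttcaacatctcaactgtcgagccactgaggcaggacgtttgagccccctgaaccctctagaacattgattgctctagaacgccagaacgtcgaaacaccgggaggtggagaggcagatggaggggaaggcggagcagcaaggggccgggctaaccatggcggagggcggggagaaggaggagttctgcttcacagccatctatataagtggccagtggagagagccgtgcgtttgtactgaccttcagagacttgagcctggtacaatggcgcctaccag
Ldha: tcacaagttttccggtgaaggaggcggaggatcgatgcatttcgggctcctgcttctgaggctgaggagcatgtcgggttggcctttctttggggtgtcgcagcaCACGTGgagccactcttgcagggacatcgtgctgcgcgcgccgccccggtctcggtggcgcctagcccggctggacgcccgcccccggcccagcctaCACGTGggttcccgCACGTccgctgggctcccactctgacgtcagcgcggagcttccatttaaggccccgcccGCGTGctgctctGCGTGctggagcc
The Egln3 window holds 1 match, which begins at position -229 relative to the start. The Pdk1 window holds 2, the Ldha window 7 and the Tpi1 window 0. Of the 7 in Ldha, 4 are the overlapping strands of 2 CACGTG hexamers, which are also E-boxes, the sites of Myc and related factors. Of the 32 listed genes with a promoter window, 28 (87.5%) had a match in at least 1 window, against 46.7% of all 27025 genes with a window. The windows of the listed genes were richer in G and C, with a median of 62.0% against 52.7% in all windows, and the motif contains CG. A match is a description of these letters and shows no binding.

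Egln3, the prolyl hydroxylase that itself rises with HIF activity, was the member that separated the mutants from B6 most. It read 7.62, 6.97 and 7.54 (log2) in Sf.Il2-/-, 7.70, 7.56 and 7.86 in Sf, and 5.27 in B6. All 6 mutant arrays lay above the B6 array, and the mutant groups overlapped each other. Against B6 the rise in Sf.Il2-/- was 2.10 ± 0.32 (log2 difference ± SE, 3 arrays against 1; limma adjusted p = 0.0121), or 4.29-fold. In Sf it was 2.43 ± 0.32 (adjusted p = 0.00816), or 5.40-fold. Its other probe set read 6.88, 6.80 and 7.04 in Sf.Il2-/-, 7.30, 7.18 and 7.49 in Sf, and 4.97 in B6, the same order of groups. The B6 array lay close to the filter of 5 at both probe sets. Egln3 passed in all 15 other settings tested in each of these comparisons, with differences of 2.06 to 2.59 in Sf and 1.76 to 2.30 in Sf.Il2-/- over those settings and within array set 2. Between the mutants it differed by -0.33 ± 0.23 (adjusted p = 0.824), with a 95% interval from -0.84 to 0.18. Egln3 lies on GRCm38.p6 chromosome 12 from 54178981 to 54203874.

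Pdk1, the kinase that shuts pyruvate dehydrogenase and so keeps pyruvate out of the mitochondria, went the other way. It read 8.81, 9.42 and 9.42 in Sf.Il2-/-, 9.57, 9.52 and 9.56 in Sf, and 10.75 in B6. At this brightest probe set the 3 groups did not overlap, with Sf.Il2-/- lowest and B6 highest. The order of the mutants did not hold at every probe set. A dimmer one read 7.32, 7.30 and 8.23 in Sf.Il2-/- and 7.54, 7.32 and 7.92 in Sf, a difference of 0.02. The dimmest also overlapped, with 5.32, 5.71 and 5.04 in Sf.Il2-/- and 5.53, 5.17 and 6.68 in Sf. Against B6 Pdk1 fell in Sf.Il2-/-, with a log2 difference of -1.53 ± 0.30 (adjusted p = 0.0341), or 2.89-fold. In Sf the difference was -1.20 ± 0.30 (adjusted p = 0.0707), which did not pass, and between the mutants it was -0.34 ± 0.21 (adjusted p = 0.804). Each of its 4 probe sets was lower in all 6 mutant arrays than in B6, with differences of -1.53 to -2.15 in Sf.Il2-/- and -1.20 to -2.17 in Sf. The call in Sf.Il2-/- held in 8 of the 15 other settings and was lost without any single Sf.Il2-/- array without Sf 1 or without the 2 arrays with neutrophil transcripts, with adjusted p of 0.0814 at the highest. It was also lost with no filter (adjusted p = 0.0568) and after quantile normalization (-1.16, adjusted p = 0.0547). With the mean of its probe sets it passed in Sf too (-1.56, adjusted p = 0.0481), as it did without Sf 3 (-1.20, adjusted p = 0.0146). Pdk1 lies on chromosome 2 from 71873215 to 71903858.

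**Figure D1:**
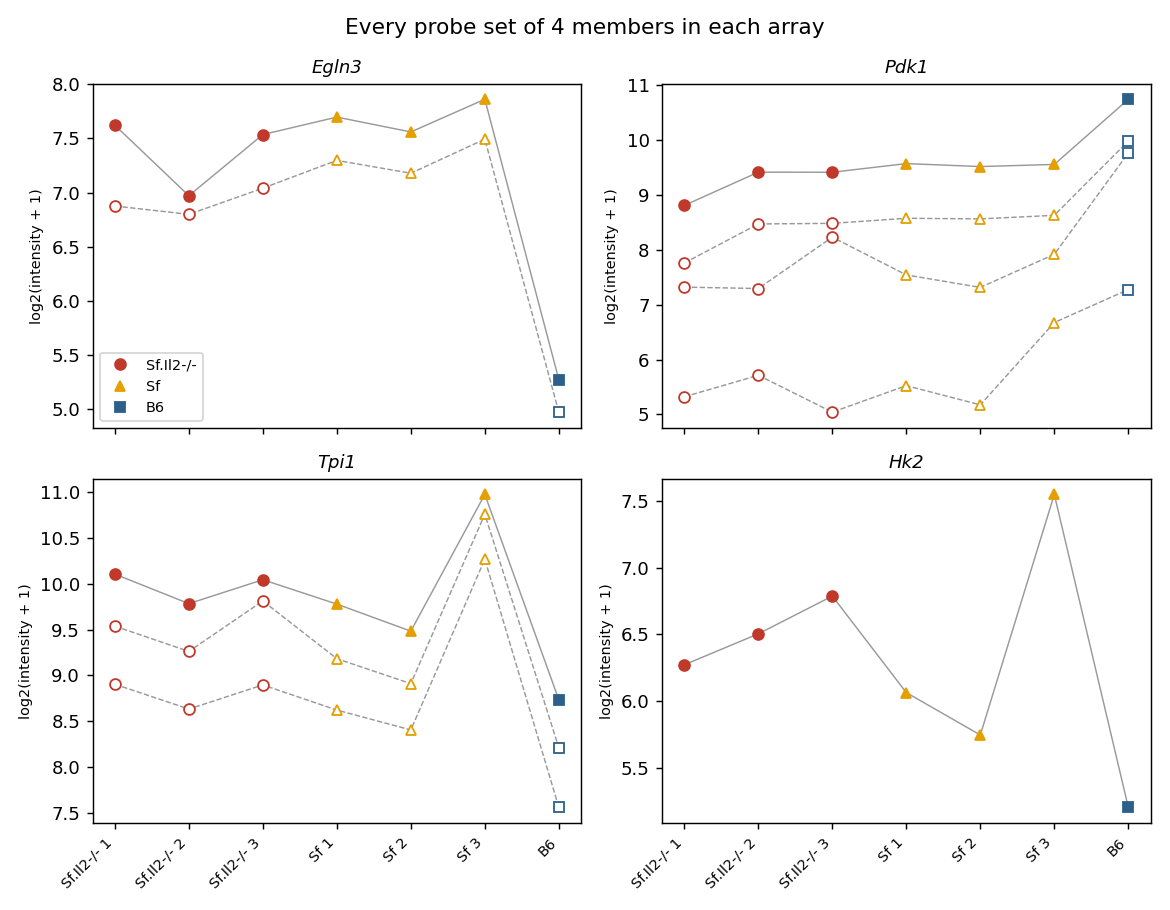
Level of every probe set of Egln3, Pdk1, Tpi1 and Hk2, as log2(intensity + 1), in the 3 Sf.Il2-/- arrays (circles), the 3 Sf arrays (triangles) and the B6 array (squares). Filled symbols are the brightest probe set, open symbols the others, and lines join the values of a probe set: Egln3 is lowest and Pdk1 highest in B6 at every probe set, and Tpi1 and Hk2 are highest in Sf 3 and lowest in B6.

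The test therefore called few members. In Sf v B6 it called 1 of 28, higher, where 2.47% of all genes tested were called (150 or 1.31% higher, 133 or 1.16% lower). In Sf.Il2-/- v B6 it called 2 of 28, 1 in each direction, where 2.69% of all genes were called (171 or 1.49% higher, 137 or 1.2% lower). In Sf.Il2-/- v Sf it called 0 of 28, where 0.279% of all genes were called (5 or 0.0436% higher, 27 or 0.236% lower), and 60 genes in place of 32 with the replicate number as a block, again with 0 members. The unadjusted p was under 0.05 for 0 members in that comparison by limma, against 7.92% of all genes, and for 4 in each comparison with B6, or 14.3%, against 22.5% in Sf v B6 and 18.6% in Sf.Il2-/- v B6. The comparisons with B6 share that 1 array. After quantile normalization the splits over all genes were 388 higher and 162 lower in Sf v B6 and 491 higher and 243 lower in Sf.Il2-/- v B6.

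The difference was above 0 for 15 members in Sf.Il2-/- v Sf, where this held for 62.2% of all genes. It was above 0 for 12 in Sf v B6 (34.7% of all genes) and for 11 in Sf.Il2-/- v B6 (39.7%). The median difference of the members was 0.01 in Sf.Il2-/- v Sf, where the median of all genes was 0.08. It was -0.14 in Sf v B6, where all genes had -0.25, and -0.13 in Sf.Il2-/- v B6, where all genes had -0.14. Quantile normalization, which gives every array the same distribution of intensities, moved the medians of all genes to 0.03, 0.02 and 0.06. The downward shift against B6 is thus not present on that scale, which largely follows from the scaling itself. In Sf.Il2-/- v Sf all 28 differences were smaller than 2-fold, and for 22 of them the 95% interval lay within 2-fold as well. Against B6 the intervals were wider, and 9 in Sf and 8 in Sf.Il2-/- lay within 2-fold.

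**Figure D2:**
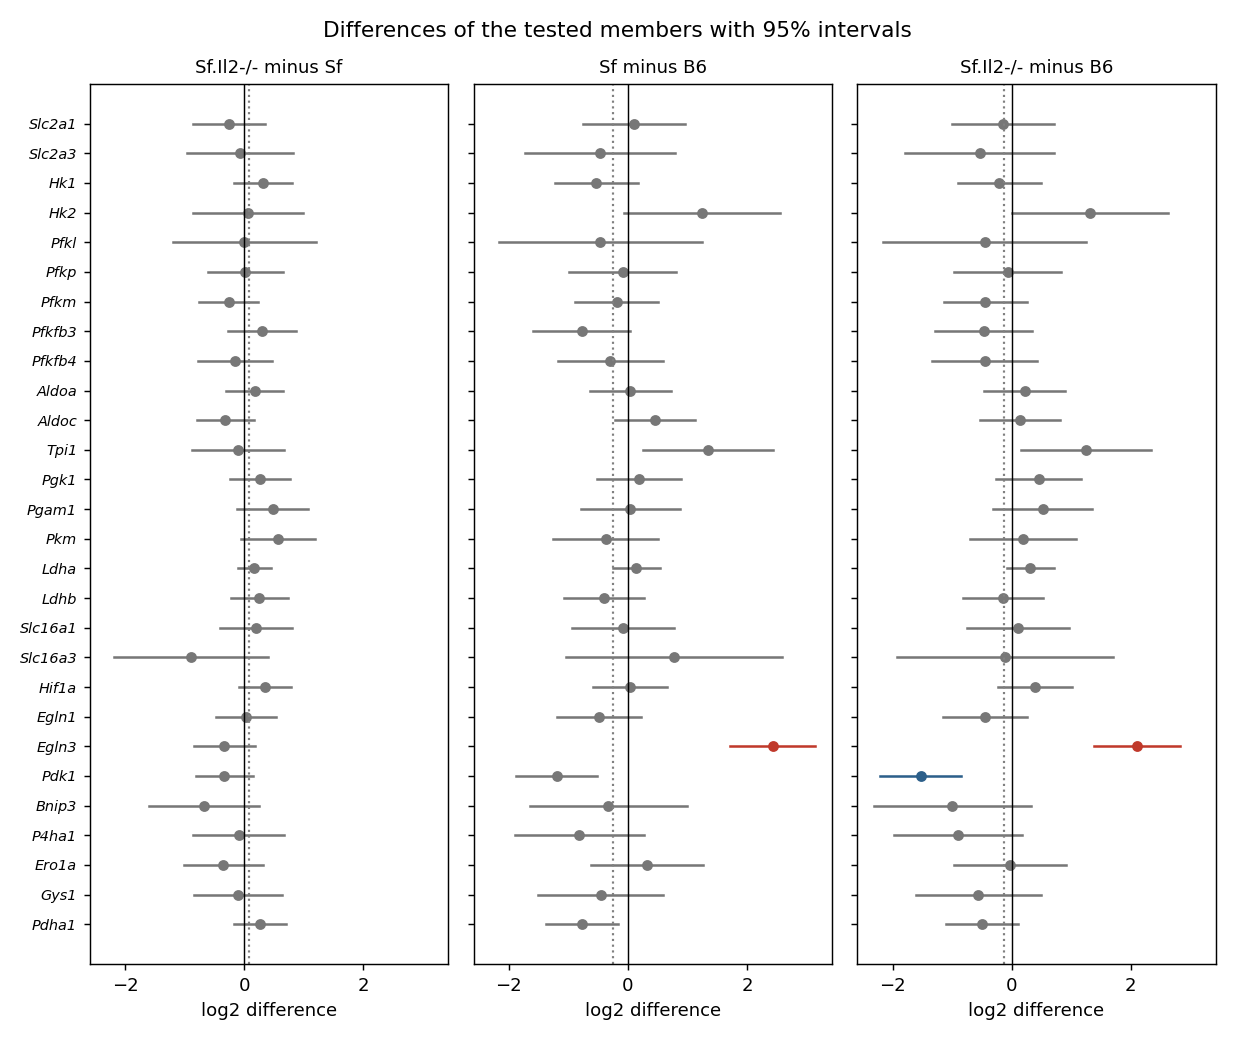
Log2 difference of each of the 28 tested members (points) with its 95% interval from limma (lines) in Sf.Il2-/- minus Sf, Sf minus B6 and Sf.Il2-/- minus B6. Red marks a rise and blue a fall past the threshold, the dotted line is the median of all genes, and only Egln3 in both comparisons with B6 and Pdk1 in Sf.Il2-/- minus B6 are coloured.

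Glucose enters T cells through the transporters of Slc2a1 (GLUT1) and Slc2a3 (GLUT3). Slc2a1 read 7.94, 8.35 and 8.39 in Sf.Il2-/-, 8.11, 8.30 and 9.01 in Sf, and 8.38 in B6. The groups overlapped, and the difference between the mutants was -0.25 ± 0.27 (adjusted p = 0.907; interval from -0.85 to 0.36). Slc2a3 read 8.13, 9.04 and 9.09 in Sf.Il2-/-, 8.53, 8.24 and 9.70 in Sf, and 9.29 in B6. Its lowest unadjusted p of the 3 comparisons came in Sf.Il2-/- v B6, at -0.54 ± 0.56 (adjusted p = 0.656). Neither transporter passed the threshold in any comparison.

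Hexokinase traps glucose in the cell, and Hk2 encodes the isozyme that activated cells are known to induce. Hk2 read 6.27, 6.50 and 6.79 in Sf.Il2-/-, 6.06, 5.75 and 7.55 in Sf, and 5.21 in B6. All 6 mutant arrays lay above B6, by 1.32 ± 0.58 in Sf.Il2-/- (adjusted p = 0.267) and 1.25 ± 0.58 in Sf (adjusted p = 0.238), and neither passed. With the array set as a block Hk2 passed in both, at 2.00 (adjusted p = 0.0271) and 1.93 (adjusted p = 0.0337), and without Sf 3 it passed in Sf.Il2-/- (1.32, adjusted p = 0.0177). Without Sf 3 the difference in Sf was 0.70 (adjusted p = 0.1), which did not pass. Hk1, the housekeeping isozyme, read 10.02, 9.87 and 10.15 in Sf.Il2-/-, 9.62, 9.36 and 10.10 in Sf, and 10.22 in B6. Its 6 mutant values were all below B6, by -0.21 in Sf.Il2-/- (adjusted p = 0.764) and -0.53 in Sf (adjusted p = 0.328).

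Tpi1, the triose phosphate isomerase, read 10.11, 9.78 and 10.05 in Sf.Il2-/-, 9.78, 9.48 and 10.98 in Sf, and 8.73 in B6. Every mutant array exceeded B6, and the highest was Sf 3. The differences from B6 were 1.24 ± 0.49 in Sf.Il2-/- (adjusted p = 0.216) and 1.35 ± 0.49 in Sf (adjusted p = 0.152), so Tpi1 did not pass. Its other 2 probe sets gave 1.33 and 1.25 in Sf.Il2-/- and 1.41 and 1.54 in Sf. Tpi1 did pass after quantile normalization, at 1.46 in Sf.Il2-/- (adjusted p = 0.0424) and 1.90 in Sf (adjusted p = 0.0205). Without Sf 3 it passed too, at 1.24 (adjusted p = 0.00885) and 0.90 (adjusted p = 0.021), and also with the array set as a block.

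The other preparatory enzymes did not pass in any comparison. Pfkl, Pfkp and Pfkm encode the subunits of phosphofructokinase, the step that commits glucose to the pathway. Pfkl read 7.42, 7.36 and 8.90 in Sf.Il2-/-, 7.36, 7.22 and 9.08 in Sf, and 8.35 in B6, so that the array of replicate 3 was far above the other 2 in both mutant groups. Its difference between the mutants was 0.01 ± 0.54, with an interval from -1.20 to 1.21. Pfkp and Pfkm differed by 0.02 and -0.26 between the mutants, and aldolase genes Aldoa and Aldoc by 0.18 and -0.31. Against B6 the probe sets of Pfkp disagree. The brightest differed by -0.07 in Sf.Il2-/- and -0.09 in Sf. A dimmer probe set lay above B6 in every mutant array, by 0.88 in Sf.Il2-/- and 1.01 in Sf. The dimmest differed by -0.67 and -0.12 in the same order, and neither dimmer probe set was tested on its own. Aldoc and Pdk1 were the 2 members whose mutant groups did not overlap at the brightest probe set. Aldoc read 5.46, 5.71 and 5.75 in Sf.Il2-/- and 5.98, 5.80 and 6.09 in Sf, and at its dimmer probe set the mutant groups overlapped. Both genes were lower in Sf.Il2-/- at the brightest probe set. Among all genes 3.72% had no overlap in that direction. In the opposite one 0 members and 8.39% of all genes had none.

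Pfkfb3 and Pfkfb4 encode bifunctional enzymes that set the level of fructose 2,6-bisphosphate, the activator of phosphofructokinase. Pfkfb3 read 6.53, 6.62 and 7.18 in Sf.Il2-/-, 6.49, 6.10 and 6.83 in Sf, and 7.25 in B6. All mutant arrays were below B6, with differences of -0.47 ± 0.36 in Sf.Il2-/- (adjusted p = 0.524) and -0.77 ± 0.36 in Sf (adjusted p = 0.24). Pfkfb4 read 6.35, 6.46 and 5.96 in Sf.Il2-/-, 6.61, 6.79 and 5.83 in Sf, and 6.71 in B6. In both mutant groups it was lowest in the array of replicate 3, and in Sf it was the only tested member for which that array lay below the mean of the other 2.

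The later, energy-yielding steps are those from Gapdh to pyruvate kinase. Pgk1, the first of them to make ATP, read 11.63, 11.33 and 11.25 in Sf.Il2-/-, 11.08, 10.72 and 11.62 in Sf, and 10.95 in B6. Pgam1, phosphoglycerate mutase, read 10.64, 10.48 and 10.49 in Sf.Il2-/-, 10.03, 9.51 and 10.64 in Sf, and 10.02 in B6. For both, the 3 Sf.Il2-/- arrays lay above B6 and the Sf arrays spread around it. Pkm, pyruvate kinase, read 10.79, 10.61 and 10.90 in Sf.Il2-/-, 9.99, 9.71 and 10.89 in Sf, and 10.57 in B6. Its difference between the mutants, 0.57 ± 0.28 (adjusted p = 0.679), had the lowest unadjusted p of the 28 in that comparison, 0.0712. It depended on Sf 3: without it Pkm (0.92, adjusted p = 0.0187), Pgam1 (0.77, adjusted p = 0.0385) and Hif1a (0.56, adjusted p = 0.0361) passed, all higher in Sf.Il2-/-. Within array set 1 Pkm differed by 0.85 (adjusted p = 0.039), and within set 2, with 1 array each, by 0.01. Over all genes the calls between the mutants also rose, from 32 to 872 without Sf 3 and to 588 within array set 1. Whether these members differ from all genes in this was not tested. Eno2, the enolase isozyme best known from neurons, read 3.94, 4.03 and 4.70 in Sf.Il2-/-, 4.28, 3.65 and 5.30 in Sf, and 4.41 in B6, under the filter in each group mean.

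Ldha encodes the lactate dehydrogenase subunit that favours lactate formation. It read 12.31, 12.02 and 12.10 in Sf.Il2-/-, 12.00, 11.85 and 12.08 in Sf, and 11.83 in B6. All mutant arrays were above B6, but the differences were small, 0.31 ± 0.18 in Sf.Il2-/- (adjusted p = 0.387) and 0.14 ± 0.18 in Sf (adjusted p = 0.641). Its intervals, from -0.08 to 0.71 and from -0.26 to 0.54, were the narrowest of the 28 members. After quantile normalization Ldha passed in both, at 0.52 (adjusted p = 0.0239) and 0.49 (adjusted p = 0.0286). Ldhb, the subunit that favours the reverse reaction, read 7.49, 7.70 and 8.07 in Sf.Il2-/-, 7.43, 7.45 and 7.61 in Sf, and 7.89 in B6, and did not pass in any comparison.

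Lactate leaves the cell through the monocarboxylate transporters of Slc16a1 (MCT1) and Slc16a3 (MCT4). Slc16a1 read 7.58, 8.20 and 8.34 in Sf.Il2-/-, 7.67, 7.62 and 8.25 in Sf, and 7.93 in B6, with the groups overlapping. Slc16a3 read 4.50, 3.84 and 4.99 in Sf.Il2-/-, 4.17, 5.17 and 6.66 in Sf, and 4.56 in B6. It reached 6.66 in Sf 3 and at most 5.17 in the other arrays. It passed the filter only through the Sf mean, 5.33, which Sf 3 carried, while the means of Sf.Il2-/- (4.44) and B6 (4.56) lay under it. Its difference between the mutants was -0.89 ± 0.57 (adjusted p = 0.811), with an interval from -2.18 to 0.40.

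Hif1a itself was bright in every array. It read 11.41, 11.24 and 11.34 in Sf.Il2-/-, 10.86, 10.67 and 11.41 in Sf, and 10.94 in B6. The Sf.Il2-/- arrays were all above B6, by 0.39 ± 0.28 (adjusted p = 0.493), and the Sf difference was 0.04 ± 0.28 (adjusted p = 0.939). The other 3 probe sets of Hif1a were dimmer and lay above B6 in all 6 mutant arrays, by 0.80, 1.15 and 0.83 in Sf.Il2-/- and by 0.51, 1.03 and 1.16 in Sf, so the probe sets disagree on the size of the difference. These 3 were not tested. After quantile normalization the brightest one passed in both comparisons with B6, at 0.66 (adjusted p = 0.0274) and 0.71 (adjusted p = 0.0238). Egln1, the main hydroxylase that marks HIF-1alpha in normal oxygen, did not follow Egln3. It read 9.19, 9.26 and 9.47 in Sf.Il2-/-, 9.17, 8.97 and 9.66 in Sf, and 9.75 in B6, so all mutant arrays were lower than B6. The differences, -0.45 ± 0.32 in Sf.Il2-/- (adjusted p = 0.484) and -0.49 ± 0.32 in Sf (adjusted p = 0.375), did not pass.

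Pdha1 encodes the subunit of pyruvate dehydrogenase that the Pdk1 kinase phosphorylates. It read 10.68, 10.33 and 10.55 in Sf.Il2-/-, 10.24, 9.97 and 10.53 in Sf, and 11.02 in B6. It was below B6 in all 6 mutant arrays, by -0.50 ± 0.27 in Sf.Il2-/- (adjusted p = 0.367) and -0.77 ± 0.27 in Sf (adjusted p = 0.147). Gys1, glycogen synthase, read 4.97, 4.69 and 5.77 in Sf.Il2-/-, 5.08, 5.03 and 5.65 in Sf, and 5.71 in B6, with no difference past the threshold.

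Of the remaining HIF targets, 0 of the 3 tested passed in any comparison. Bnip3, which marks mitochondria for removal, read 5.40, 4.25 and 5.87 in Sf.Il2-/-, 5.74, 5.41 and 6.38 in Sf, and 6.17 in B6. P4ha1, a collagen prolyl hydroxylase, read 7.43, 7.73 and 8.18 in Sf.Il2-/-, 7.67, 7.33 and 8.63 in Sf, and 8.69 in B6. The arrays of P4ha1 were all below B6, by -0.91 ± 0.48 in Sf.Il2-/- (adjusted p = 0.351) and -0.81 ± 0.48 in Sf (adjusted p = 0.331). Ero1a, an oxidase of the endoplasmic reticulum, read 8.28, 8.45 and 8.31 in Sf.Il2-/-, 8.54, 8.17 and 9.38 in Sf, and 8.38 in B6. All 3 of its probe sets had a higher mean in Sf than in B6, by 0.32, 0.74 and 0.51, and in Sf 3 all were far above Sf 1 and Sf 2. Vegfa, the vascular growth factor gene, was under the filter at 4.54, 4.51 and 4.48 in Sf.Il2-/-, 4.63, 4.92 and 5.33 in Sf, and 4.12 in B6. Its 6 mutant arrays were above B6, and with no filter it still did not pass (adjusted p = 0.721 in Sf.Il2-/- and 0.299 in Sf).

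**Figure D3:**
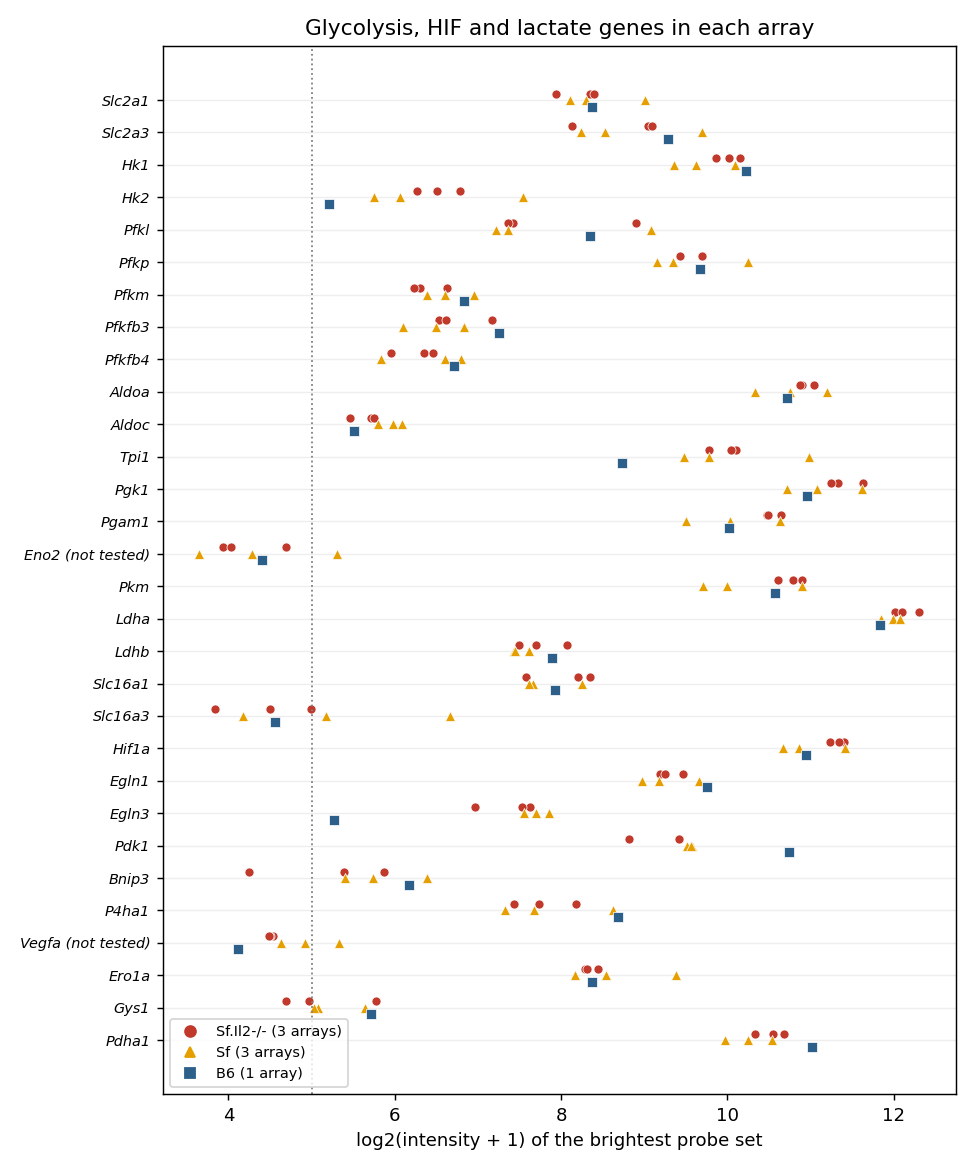
Level of the 30 members read, as log2(intensity + 1) of the brightest probe set, in each Sf.Il2-/- array (circles), Sf array (triangles) and the B6 array (squares). The dotted line is the filter at 5. Egln3 and Hk2 have all mutant arrays to the right of B6, and Pdk1 and Pdha1 have them to the left.

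In Sf v B6 all 3 Sf arrays lay above B6 for 5 members and below it for 8, where 19.6% and 46.9% of all genes did. In Sf.Il2-/- v B6 all 3 arrays lay above for 9 and below for 10, where 24.7% and 44.5% did. Taking both mutants together, 4 members had all 6 mutant arrays above B6 (Egln3, Hk2, Tpi1 and Ldha), or 14.3%, and 14.7% of all genes did. All 6 lay below B6 for 6 members (Pdk1, Hk1, Pfkfb3, Egln1, P4ha1 and Pdha1), or 21.4%, and 37.3% of all genes did. Neither share of members exceeded that of all genes. These counts hold for the brightest probe set of each gene. At the other probe set of Hk1, Pfkfb3, Egln1, P4ha1 and Pdha1 the mutant arrays lay on both sides of B6. For Hk1, for example, that probe set read 8.58 in Sf 3, 8.81 in Sf.Il2-/- 3 and 8.38 in B6. Of the members that fell, only Pdk1 was below B6 in all 6 mutant arrays at every probe set. After quantile normalization the group difference was above 0 for Hk1 in both mutants (0.12 in Sf.Il2-/-, 0.06 in Sf) and for Egln1 in Sf (0.03), so the direction of these genes depends on the scale.

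Members also differed widely inside the Sf group. Sf 3 was the highest of the 3 Sf arrays for 26 of the 28 members, or 92.9%, where it was highest for 68% of all genes. Its upper quartile of intensity was also higher, at 145 against 116 in Sf 1 and 110 in Sf 2. Whether this difference between arrays accounts for the share of members was not tested. Compared with the mean of Sf 1 and Sf 2, Sf 3 was higher by a median of 0.65 over the members and 0.35 over all genes. It was more than 2-fold higher for 8 members (Slc2a3, Hk2, Pfkl, Tpi1, Pkm, Slc16a3, P4ha1 and Ero1a) and for 7.52% of all genes. Of these, Slc16a3 passed the filter only through the Sf mean that Sf 3 carried, so its place here is partly selected. The same contrast in Sf.Il2-/-, array 3 against arrays 1 and 2, gave a median of 0.24 over members and 0.13 over all genes. There 2 members (Pfkl and Bnip3) and 2.05% of all genes were more than 2-fold higher. Sf.Il2-/- 3 was the highest of its group for 17 members, or 60.7%, and for 51.4% of all genes. At their brightest probe sets Egln3 and Pdk1 moved little in Sf 3, by 0.23 and 0.01. The dimmest probe set of Pdk1 read 6.68 in Sf 3 against 5.53 and 5.17 in Sf 1 and Sf 2. Its remaining probe sets read 7.92 against 7.54 and 7.32, and 8.63 against 8.58 and 8.57. The median SD of a member over the 3 arrays was 0.23 in Sf.Il2-/- and 0.44 in Sf, against 0.22 and 0.31 over all genes. Sf 3 also had the highest summed intensity of proliferation markers in its group, 13105 against 8131 and 6532 in Sf 1 and Sf 2, and whether this bears on its glycolytic genes was not tested.

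**Figure D4:**
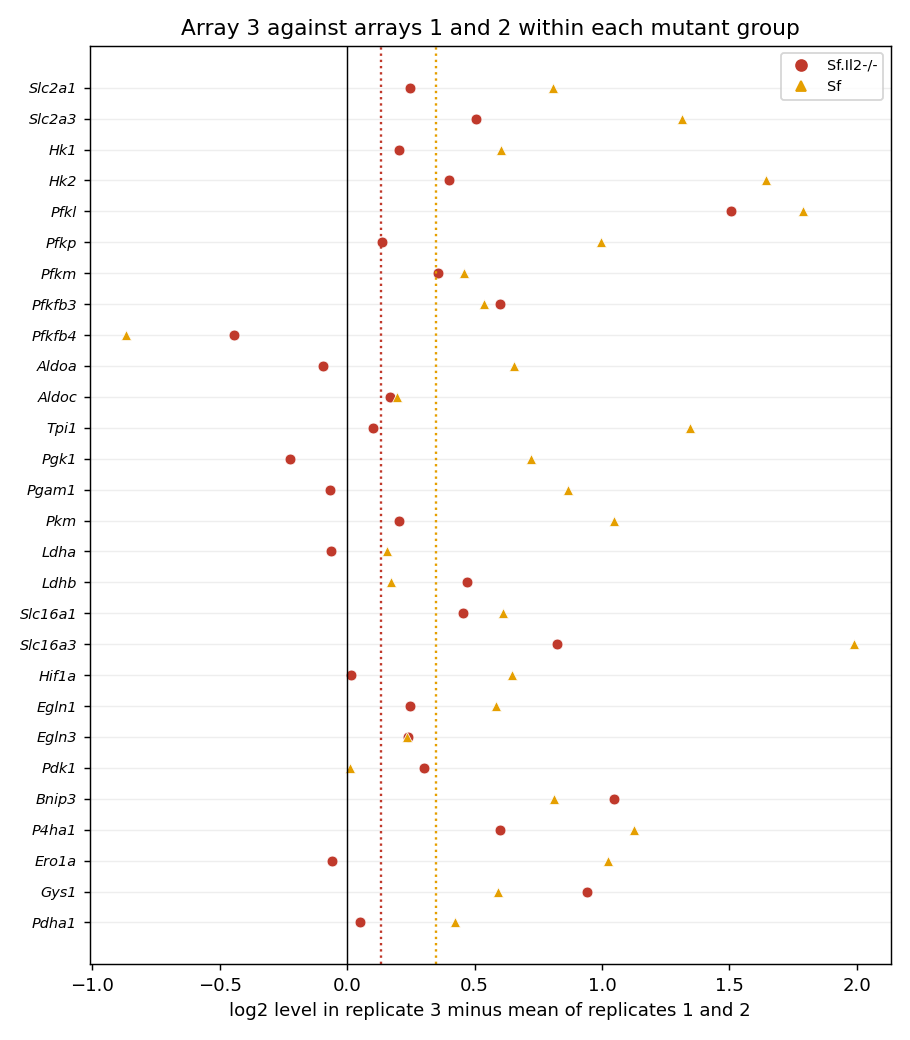
Log2 level of each tested member in the array of replicate 3 minus the mean of replicates 1 and 2, for Sf.Il2-/- (circles) and Sf (triangles). Dotted lines are the medians of all genes in the same colours (0.13 and 0.35), and the Sf values lie above 0 for 27 of 28 members.

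Leaving out Sf 3 changed which members passed. In Sf v B6 8 of the 27 members then tested passed, 2 higher (Egln3 and Tpi1) and 6 lower (Pdk1, Pkm, Hk1, Egln1, P4ha1 and Pdha1), while the count over all genes went to 3523, 712 higher and 2811 lower. The 6 that fell then ranged from -0.68 for Egln1 to -1.20 for Pdk1. In Sf.Il2-/- v B6 4 members then passed (Egln3, Tpi1, Hk2 and Pdk1), with 1541 genes in all. With the array set as a block 3 members rose in Sf (Egln3, Hk2 and Tpi1), and in Sf.Il2-/- those 3 rose and Pdk1 fell. After quantile normalization 6 members rose in Sf (Egln3, Tpi1, Pgk1, Aldoa, Hif1a and Ldha) and 4 in Sf.Il2-/- (Egln3, Tpi1, Hif1a and Ldha). Egln3 and Tpi1 were the members that passed in each of these 3 settings in both comparisons. Over all genes the array set block called 605 in Sf v B6 and 721 in Sf.Il2-/- v B6, and quantile normalization 550 and 734. Calls over all genes thus rose in each setting along with those of the members. Whether the members differ from all genes in this was not tested.

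Genes around the pathway were read from lists chosen by name, also with earlier results of these data known. Of 23 other HIF regulators and targets 22 were tested, and Epas1, which encodes HIF-2alpha, rose in Sf. It read 9.80, 7.73 and 8.82 in Sf.Il2-/-, 10.30, 9.83 and 10.59 in Sf, and 6.96 in B6. The rise in Sf was 3.28 ± 0.63 (adjusted p = 0.0292), a call lost without Sf 1 (adjusted p = 0.0564), without Sf.Il2-/- 3 (adjusted p = 0.0532) or without the filter (adjusted p = 0.063). In Sf.Il2-/- Epas1 was above B6 by 1.83 ± 0.63 (adjusted p = 0.178), and below Sf by -1.46 ± 0.45 (adjusted p = 0.424), and neither passed. Its other probe set read 6.49, 5.27 and 6.75 in Sf.Il2-/-, 7.08, 6.74 and 7.76 in Sf, and 4.50 in B6. Of the other 21, 0 passed in any comparison, and the lowest p in Sf.Il2-/- v B6 was that of Ndrg1 (-1.32 ± 0.41, adjusted p = 0.136). Egln2, the third hydroxylase gene, differed from B6 by -0.29 in Sf.Il2-/- and -0.55 in Sf.

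Of 20 other glycolytic isozymes and sugar transporters 12 were tested, and Adpgk, an ADP-dependent glucokinase, fell in Sf.Il2-/-. It read 6.80, 6.82 and 7.32 in Sf.Il2-/-, 7.12, 7.36 and 7.70 in Sf, and 8.47 in B6. The fall in Sf.Il2-/- was -1.49 ± 0.33 (adjusted p = 0.0487), just past the threshold and lost in 10 of the 15 other settings with a test. Its other probe set read 5.63, 5.65 and 7.45 in Sf.Il2-/-, 6.19, 6.13 and 7.21 in Sf, and 8.40 in B6. In Sf the difference was -1.08 ± 0.33 (adjusted p = 0.111).

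The other lists had 0 members past the threshold in every comparison. They were 10 tested genes of pyruvate dehydrogenase and pyruvate carriers, 6 of the pentose phosphate pathway, 10 of glycogen metabolism and 14 of the TCA cycle. Against B6, the lowest p in Sf.Il2-/- was that of Pdk3 (1.03 ± 0.31, adjusted p = 0.134) in the first list, Pgd (-0.45, adjusted p = 0.521) in the second, Gsk3b (-1.01, adjusted p = 0.171) in the third and Fh1 (0.55, adjusted p = 0.411) in the fourth. In Sf it was that of Pdhb (-0.76, adjusted p = 0.142), Rpia (-0.67, adjusted p = 0.181), Gbe1 (-0.72, adjusted p = 0.165) and Sdha (-0.75, adjusted p = 0.161) in the same order of lists. Between the mutants it was that of Pdp1 (-0.59, adjusted p = 0.571), Rpia (0.53, adjusted p = 0.483), Gbe1 (0.37, adjusted p = 0.721) and Sdhb (0.58, adjusted p = 0.424). Relative to the median of all genes, the list medians in Sf.Il2-/- v Sf ran from -0.15 for the isozymes to 0.22 for the TCA cycle.

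Several marker lists moved with the comparisons to B6, and their part in the results was not tested. Of 9 tested proliferation markers 3 rose in Sf.Il2-/- (Rrm2, Cdk1 and Birc5) and 1 in Sf (Rrm2), with summed intensities of 8923 to 12889 in Sf.Il2-/-, 6532 to 13105 in Sf and 5246 in B6. Of the NK cell list Gzma and Eomes, which activated CD4 T cells can also express, rose in Sf.Il2-/- and Gzma rose in Sf, while the defining receptor gene Ncr1 stayed between 2.14 and 3.12 in all arrays. Summed erythroid markers were 51.3 to 73.2 in Sf.Il2-/-, 49.9 to 66.8 in Sf and 145 in B6, with Hba-a1 at 1.80 or lower in every array. Summed CD8 markers were 151 to 201 in Sf.Il2-/-, 146 to 201 in Sf and 312 in B6, and summed B cell markers 1917 to 2164, 972 to 1769 and 3068 in the same groups. Stromal and endothelial markers were 267 to 380, 220 to 281 and 509 in the same groups. The B cell sum was carried by Ighm (11.53 in B6, 9.69 to 11.00 in the mutant arrays). The stromal sum was carried mainly by Pecam1 (8.76 in B6, 6.84 to 8.18 in the mutant arrays). Ms4a1, Cd79a, Pdgfrb and Cdh5 were lower in B6 than in every mutant array, and the remaining genes of these lists had mutant arrays on either side of B6. These sums therefore do not show more B or stromal cells in B6. Summed neutrophil markers were highest in Sf.Il2-/- 2, at 594, with Sf 1 next, and 196 to 261 in the other arrays. Without these 2 arrays Egln3 passed in both comparisons with B6, and Pdk1 did not in Sf.Il2-/- (adjusted p = 0.077).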

How the data were processed

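Expression in sorted CD4+ T cells was measured on 7 Affymetrix mouse arrays. The authors deposited a linear intensity per probe set and array (45037 probe sets). Per the submitters' processing notes GCRMA and GCOS were used, with version and order not given in the sources used here.

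Intensities were taken as log2(intensity + 1). Gene names came from the platform annotation (34945 probe sets name 1 gene, 932 several, 9160 none), and 34741 were updated through Entrez numbers on GRCm38.p6. A fit of 3 group means over the 7 arrays (lmFit and eBayes with an intensity trend, limma 3.58.1, R 4.3.3) left 4 residual degrees of freedom, and p-values were adjusted by Benjamini-Hochberg over 11460 genes at 0.05. The labels call the arrays biological replicates. Full statistics are given for members past the threshold or with the lowest p of their role, and for other lists likewise. The fit was run on simulated data with independent noise, of the same SD per gene in all 7 arrays and without array sets or an outlying array. This checked only that the size of planted differences was recovered, and does not bear on the calls made here. Members and lists were chosen with earlier results of these data known.

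Same-numbered Sf.Il2-/- and Sf arrays deviated together (correlations 0.301, 0.211 and 0.505), and the labels give no pairing. Sf.Il2-/- 1 correlated more with Sf 2 (0.333) than with Sf 1, and Sf.Il2-/- 2 with Sf 1 at 0.111. These values set the arrays of replicate 3 apart from the others. They do not show that replicates 1 and 2 are paired by number. A block of the replicate number was tried as an alternative, as were other filters, scalings, pseudocounts, probe set rules, left-out arrays and array sets. Plots used matplotlib 3.10.9 (Python 3.11.15).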

Additional observations from a re-analysis of the deposited data

Results flagged for a closer look

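The 3 probe sets that name Gapdh together with its pseudogenes or other genes were not among the genes tested, and all 3 were higher in each of the 6 mutant arrays than in B6. Their mean over the mutant arrays exceeded B6 by 0.64, 1.47 and 0.66 on the log2 scale, and the group means exceeded it by 0.65, 1.53 and 0.63 in Sf.Il2-/- and by 0.64, 1.42 and 0.70 in Sf. Gapdh encodes the glycolytic step after Tpi1. The brightest of them read 12.49, 12.33 and 12.52 in Sf.Il2-/-, 12.40, 12.47 and 12.45 in Sf, and 11.80 in B6. These values were not tested, and how much of each signal comes from Gapdh itself is not given. Of the 3 probe sets that Bnip3l shares with its pseudogene, 2 lay below B6 in all 6 mutant arrays, by a mean of -0.44 and -0.39. The third differed by -0.05 with arrays on either side. Among the genes tested, 14.7% had all 6 mutant arrays above B6 and 37.3% had all 6 below it.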

How the results depend on the processing

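Egln3 kept its direction and its call in Sf v B6 and Sf.Il2-/- v B6 in every setting with a test. Of 480 values of 29 named genes and comparisons in other settings, 420 kept their call or moved by less than 1 SD, 20 lost a call, 14 gained one, 26 moved and 0 changed sign with a call. Some settings, such as other filters or a left-out array of the group not compared, leave a difference unchanged by construction. The 420 include such values, also for genes without a call, and are no measure of robustness. For Sf.Il2-/- v Sf, Sf v B6 and Sf.Il2-/- v B6 the numbers of all genes called (32, 283 and 308) became 11, 161 and 138 without the filter. They became 74, 605 and 721 with the array set as a block, and 550 and 734 in the comparisons with B6 after quantile normalization. The replicate block gave 60 genes and array set 1 alone 588 in Sf.Il2-/- v Sf, and the mean of probe sets gave 188 in Sf v B6. Leaving out 1 array gave 8 to 872, 116 to 3523 and 129 to 1541, the highest each time without Sf 3.

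Members called in Sf.Il2-/- v Sf were 1 within array set 1 and 0 to 3 with 1 array left out. The replicate block called 0 and changed no member's call. In Sf v B6 they were 6 after quantile normalization, 2 with the mean of probe sets, 3 with the array set block and 1 to 8 with 1 array left out. In Sf.Il2-/- v B6 they were 1 without the filter, 4 after quantile normalization, 4 with the array set block, 1 without the arrays with neutrophil transcripts and 1 to 4 with 1 array left out. The median member difference was 0.20 and -0.26 within array sets 1 and 2 for Sf.Il2-/- v Sf, with -0.20 to 0.35 when 1 array was left out. Within set 2 it was 0.37 for Sf v B6 and 0.11 for Sf.Il2-/- v B6, and for the second it was 0.12 after quantile normalization and 0.27 with the array set block. Leaving out 1 array kept it between -0.34 and -0.01 in Sf v B6 and between -0.26 and -0.01 in Sf.Il2-/- v B6. Calls among the other pathway genes, 2 over the 3 comparisons, were 0 without the filter, 10 after quantile normalization, and 1 with centred arrays or a pseudocount of 16. The cause of these moves was not tested. The number of arrays, with 1 for B6, limits what can be resolved.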
